A study of Drosophila melanogaster with 40 samples.

Results

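The genes described here encode the subunits of the proteasome, the barrel-shaped protease that degrades ubiquitin-tagged proteins. They were taken from the table of counts by symbol, as every row whose name begins with Prosalpha, Prosbeta, Rpt plus a digit or Rpn plus a digit. This rule gave 48 genes of the 17784 features in the table. Of these, 32 are constitutive subunits, which consist of 7 alpha ring genes, 7 beta ring genes, 6 base ATPases, 4 other base subunits and 8 lid subunits. The other 16 are paralogs whose symbol carries a T, or an R with or without a digit, after the subunit number. All 32 constitutive subunits passed the filter on low counts, whereas only Prosalpha1R and Rpn13R did so among the paralogs.

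Each of the 40 samples was a pool of 13 to 21 heads of 10-day-old wild-type male flies, from which poly-A RNA was sequenced. Acute feeding lasted 24 h and was applied to 7 samples with 0.2% DMSO, 6 with 10 µM 2-AAPA and 7 with 100 µM mitoQ. Chronic feeding lasted 10 days and was applied to 7 samples with 0.2% DMSO, 7 with 10 µM 2-AAPA and 6 with 100 µM mitoQ. The study's own figures list 6 samples of chronic DMSO, and its methods state that outliers were removed. Which sample it left out is not given in the sources used here, and all 7 were kept in the main fit. The samples of a group are separate pools of flies, and nothing in the labels ties pools to separate cultures, so that p-values measure the spread between pools. All flies were of the Oregon Red background with no transgene, and heads were separated from frozen bodies with sieves. By the study's methods, acutely fed flies lived on cornmeal-molasses food until the final day, when they were moved to instant medium, and chronically fed flies lived on instant medium throughout, so that the length of drug feeding and the change of food cannot be told apart in the comparison of schedules. The labels give DMSO as the vehicle of both drugs, while the study's list of drugs gives ethanol as the solvent of mitoQ, and no sample analysed here was fed ethanol alone. 2-AAPA is an inhibitor of glutathione reductase, and mitoQ is a quinone antioxidant that accumulates in mitochondria.

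The proteasome has a core particle and a regulatory particle. In the core, alpha rings gate the entrance and beta rings hold the proteolytic sites, of which Prosbeta1, Prosbeta2 and Prosbeta5 carry the caspase-like, trypsin-like and chymotrypsin-like activities. In the regulatory particle, the ring of Rpt ATPases unfolds substrates, base subunits such as Rpn1, Rpn10 and Rpn13 bind ubiquitin chains or their carriers, and the lid holds Rpn11, which removes ubiquitin from substrates. In yeast and animals the subunit genes are known to be transcribed as a group, with cnc, the fly relative of the Nrf factors, among the regulators, and in Drosophila several subunits have second copies that are used in the male germ line.

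Total counts lay between 24318573 and 30104079 per sample, with a median of 26892679.5, and each constitutive subunit received at least 860 counts in every sample. Among the libraries, 5 stood apart from the rest. Acute DMSO replicate 5 had the lowest TMM factor, 0.815, against 0.884 for the next lowest, and the strongest tilt of expression with gene length, with log2 CPM lower by 0.314 per doubling of length than the mean of all samples. Chronic DMSO replicate 4 had 0.262% of its counts on ribosomal RNA genes, against 1.68% in the next lowest library. Chronic DMSO replicate 7 had counts on 16259 features, against at most 14459 elsewhere. Chronic 2-AAPA replicate 6 had 4.37% of its counts on mitochondrial genes, against at most 0.439% elsewhere. Chronic 2-AAPA replicate 5 was listed because it stood apart in the subunits themselves, as given below. Fits without these 5 libraries therefore leave out a sample chosen by the levels under study. Markers of head tissue were present throughout, with a summed level of 7 photoreceptor markers of at least 36600 CPM and of 5 neuron markers of at least 1560 CPM in every sample. CPM here is a count divided by the library's total, after correction of that total by its TMM factor, in the usual scaling of the unit. In bulk RNA of heads, fewer cells of a type and less RNA per cell cannot be told apart.

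The constitutive subunits were abundant transcripts of the fly head, and their levels per length of exon spanned a narrow range. Their median levels over the 40 samples lay between 31.0 CPM per kb for Rpn1, a scaffold of the base, and 141.2 CPM per kb for Prosalpha1. The lowest of these was above 83.3%, and the highest above 96.0%, of the 13884 genes with a median above 0. The value for Prosalpha1 is uncertain, because its counts are nearly equal to those of its paralog Prosalpha1R in every library, as described below. The highest subunit without this reservation was Prosbeta5, the chymotrypsin-like catalytic subunit, with a median of 90.5 CPM per kb and a range of 79.8 to 146.2. Prosbeta2, the trypsin-like catalytic subunit, followed with a median of 80.5 CPM per kb, and Prosbeta1, the caspase-like catalytic subunit, had a median of 68.8 CPM per kb. Prosbeta5 was above Prosbeta2 in 39 of 40 libraries, and Prosbeta2 was above Prosbeta1 in 38 of 40.

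The core particle was measured at higher levels per length than the lid. The median subunit of the alpha ring had a median of 64.0 CPM per kb over the samples, that of the beta ring 63.3 CPM per kb and that of the base ATPases 52.2 CPM per kb. The median lid subunit had 42.8 CPM per kb, and the 4 other base subunits had 44.3 CPM per kb. In all 40 libraries the alpha ring, the beta ring and the base ATPases each exceeded the lid, and both rings exceeded the ATPases, whereas the alpha ring exceeded the beta ring in 27 of 40 libraries and the other base subunits exceeded the lid in 23. Rpt6 had the highest level of the ATPases, with a median of 70.5 CPM per kb, and Rpt5 the lowest, with 40.5 CPM per kb. At the low end stood Rpn7, a structural subunit of the lid, with 35.4 CPM per kb, and Rpn2, a scaffold of the base, with 32.0 CPM per kb. The ranges of every subunit and its neighbour in this order overlapped in all 31 neighbouring pairs, and 2 of these pairs had the same order in all 40 libraries, namely Prosalpha1 above Prosbeta5 and Rpn12 above Rpn3. The core genes are also shorter, with exon lengths of 815 to 1215 bases against 995 to 3412 bases in the regulatory particle, and the part of the length tilt of each library in these levels was not tested. With no division by length the core was the lower particle, with a mean log2 CPM of 6.017 against 6.273 for the regulatory particle. By CPM alone Rpn2 ranked 2nd of the 32 subunits.

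**Figure D1:**
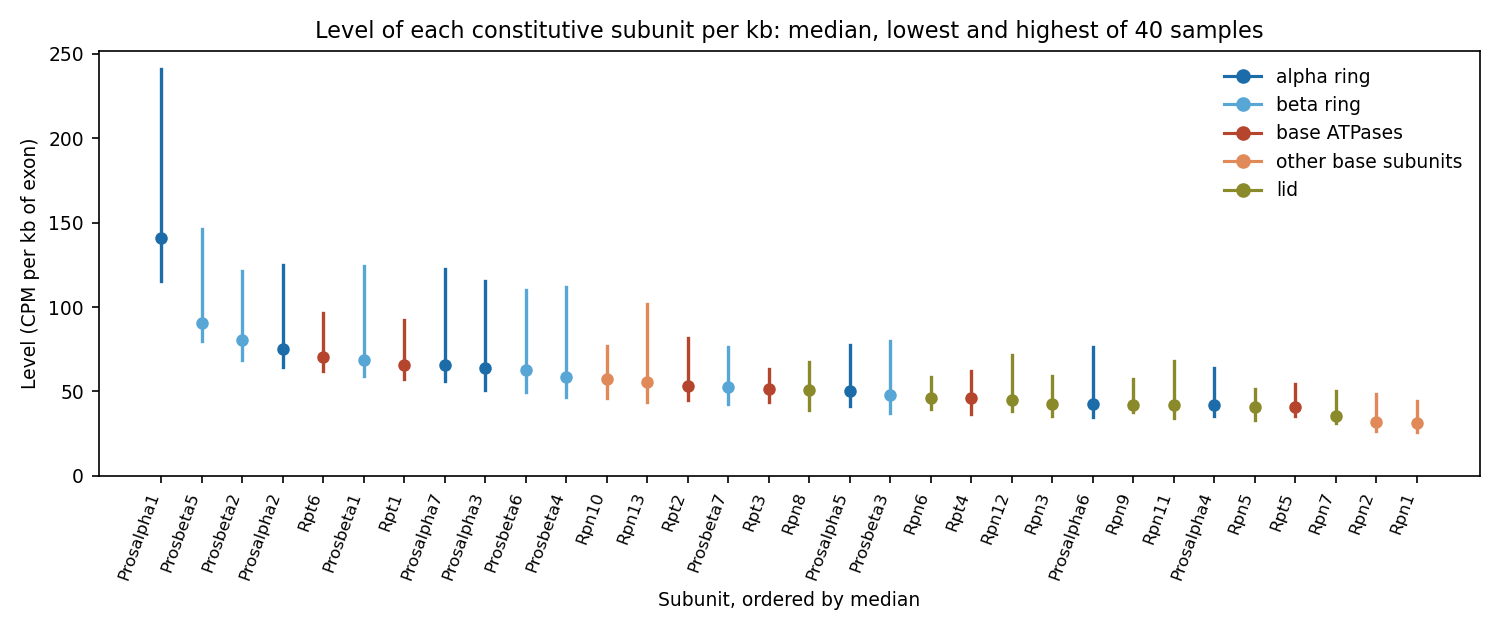
Level of each of the 32 constitutive subunits on a linear axis in CPM per kb of exon, ordered by median. Points are medians of the 40 samples, lines run from the lowest to the highest sample, and colours mark the classes. Prosalpha1, with a median of 141.2, stands above the rest, and Rpn2 and Rpn1 lie at the low end with 32.0 and 31.0.

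Summed over the 14 core subunits, Prosalpha1 with its uncertain value among them, the groups overlapped throughout. The sums in acute DMSO lay between 824.7 and 1570 CPM with a median of 965.7, those in acute 2-AAPA between 861.4 and 1140 CPM with a median of 910.5, and those in acute mitoQ between 848.3 and 1160 CPM with a median of 969.3. The sums in chronic DMSO lay between 866.1 and 1158 CPM with a median of 988.3, those in chronic 2-AAPA between 826.6 and 1082 CPM with a median of 906.7, and those in chronic mitoQ between 782.2 and 1003 CPM with a median of 906.8. The single high value, 1570 CPM, belonged to acute DMSO replicate 5, and no other sample exceeded 1160 CPM.

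The 18 subunits of the regulatory particle overlapped between groups in the same manner. Their sums had medians of 1471 CPM in acute DMSO, 1442 CPM in acute 2-AAPA, 1456 CPM in acute mitoQ, 1461 CPM in chronic DMSO, 1333 CPM in chronic 2-AAPA and 1399 CPM in chronic mitoQ. The lowest sum, 1233 CPM, was in chronic 2-AAPA replicate 6. The highest sums were 1876 CPM in acute DMSO replicate 5 and 1793 CPM in chronic 2-AAPA replicate 5. The ratio of core to regulatory sums had a median of 0.666 and a range of 0.603 to 0.837. Its extremes were these same libraries, chronic 2-AAPA replicate 5 at the low end and acute DMSO replicate 5 at the high end. Without acute DMSO replicate 5 the highest ratio was 0.753, in chronic DMSO replicate 7.

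**Figure D2:**
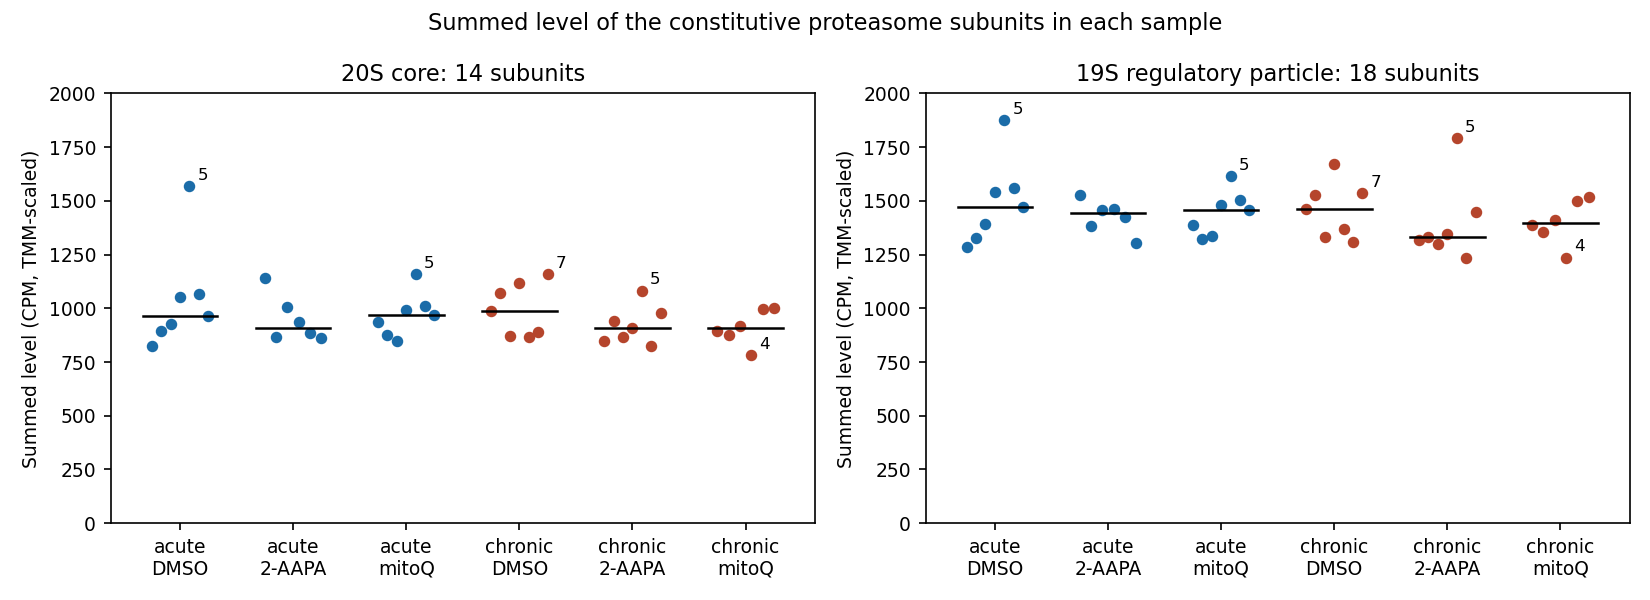
Summed level in CPM of the 14 core subunits (left) and the 18 subunits of the regulatory particle (right) in each sample, by group. Points are samples, blue for acute and red for chronic feeding, bars are group medians, and numbers mark the replicates that the text names. The groups overlap, and acute DMSO replicate 5 is the highest sample in both panels, at 1570 and 1876 CPM.

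The first question was whether the length of feeding changed the proteasome. With adjustment for drug, no constitutive subunit was called in edgeR's quasi-likelihood test at an adjusted p under 0.05 (0 of 32), where 8.64% of all features tested were called. An unadjusted p under 0.05 was reached by 2 of the 32, Rpn6 and Prosalpha4, against 22.3% of all features tested. DESeq2 also called 0 of 32. The estimates were small, between a log2 fold change of -0.12 for the alpha ring subunit Prosalpha6 and 0.01 for Rpn7. The 95% intervals of all 32 subunits lay within a 1.5-fold change in either direction, and the outermost bounds were -0.24 for Prosalpha6 and 0.11.

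Most of these small estimates had the same sign. The log2 fold change was negative, that is lower in chronic samples, in 30 of 32 subunits, against 46.9% of all features tested, and the median was -0.05 against 0.01 for all features. The median was -0.06 for the core and -0.04 for the regulatory particle. Because the subunits varied together between libraries, as given below, 32 estimates of one sign are not 32 separate observations. When acute DMSO replicate 5 was left out, 22 of 32 were negative with a median of -0.02, and 15 of 32 were negative with a median of 0.01 when the length tilt of each library was a covariate.

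In the catalytic subunits the schedules could not be separated. Prosbeta5 had medians of 103.5, 102.1 and 108.3 CPM in acute DMSO, 2-AAPA and mitoQ and of 102.6, 101.4 and 99.3 CPM in the corresponding chronic groups. Its lowest values in the 6 groups were all between 90.9 and 93.7 CPM, its highest value outside acute DMSO replicate 5 was 127.1 CPM, and acute DMSO replicate 5 had 166.5 CPM. All groups overlapped, with a log2 fold change of -0.10 ± 0.05 (SE) and an adjusted p of 0.288 in edgeR's quasi-likelihood test. Prosbeta2 ranged from 71.2 to 125.5 CPM and Prosbeta1 from 50.4 to 105.9 CPM over all samples, and their log2 fold changes between schedules were -0.05 ± 0.06 and -0.04 ± 0.07 (SE).

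Among the other members at the ends of their class, the alpha ring held the lowest estimate of all, that of Prosalpha6, and within this ring Prosalpha5 had the estimate nearest to 0, at -0.05. Prosalpha6 had group medians of 48.9, 44.8 and 49.3 CPM under acute DMSO, 2-AAPA and mitoQ and of 49.6, 43.9 and 43.5 CPM under the chronic regimens, with an overall range of 37.4 to 81.8 CPM. Prosbeta3, a structural beta subunit, ranged from 34.1 to 72.9 CPM, Rpt3 from 68.4 to 98.0 CPM and Rpt6 from 87.1 to 135.8 CPM. Rpn13, a ubiquitin receptor of the base, ranged from 72.9 to 170.3 CPM, which was the widest spread within groups of any constitutive subunit, with an SD of 0.259 on the log2 scale. Rpn11, the deubiquitinase of the lid, had group medians between 48.8 and 54.3 CPM and a log2 fold change between schedules of -0.08 ± 0.05 (SE). In each of these genes the highest sample was acute DMSO replicate 5 and every pair of groups overlapped.

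Rpn6, a lid subunit whose helical repeats hold core and regulatory particle together, was the subunit nearest to the threshold. It lies on chromosome 2R from 14750166 to 14752910 in BDGP6, on the minus strand, and its exons overlap no other gene. Its levels lay between 86.1 and 93.8 CPM with a median of 91.2 in acute DMSO, between 90.1 and 101.2 CPM with a median of 97.5 in acute 2-AAPA, and between 87.4 and 94.7 CPM with a median of 90.8 in acute mitoQ. In the chronic groups they lay between 82.3 and 114.4 CPM with a median of 88.2 under DMSO, between 77.2 and 91.5 CPM with a median of 84.4 under 2-AAPA, and between 76.8 and 89.8 CPM with a median of 85.4 under mitoQ. Each chronic median was below its acute counterpart, and the value of 114.4 CPM, which was the highest of all 40 samples, belonged to chronic DMSO replicate 7.

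Between schedules the log2 fold change of Rpn6 was -0.09 ± 0.03 (SE), with an adjusted p of 0.0907 in edgeR's quasi-likelihood test. Without chronic DMSO replicate 7 it was -0.10 ± 0.03 with an adjusted p of 0.00562, so that Rpn6 was then called, as the sole member, where 9.26% of all features were called. Over the alternatives this adjusted p ranged from 0.00176 to 0.168. The lowest was with the 5 libraries left out, which include chronic 2-AAPA replicate 5, chosen on the subunits' own levels. Apart from chronic DMSO replicate 7, the 19 chronic samples lay between 76.8 and 91.5 CPM. Of these, 10 were below every one of the 20 acute samples, whose lowest value was 86.1 CPM. The other 6 samples of chronic DMSO lay between 82.3 and 90.3 CPM.

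In the 3 arms taken singly, no constitutive subunit was called. In the DMSO arm 0 of 32 were called, where 5.11% of all features were called. Of the features called, 417 were higher and 169 lower in chronic DMSO, the group that holds chronic DMSO replicate 7. None of the 32 subunits had an unadjusted p under 0.05, against 15.3% of all features. The median log2 fold change of the subunits was -0.05, and it was 0.04 without acute DMSO replicate 5. In the mitoQ arm 0 of 32 were called, where 0.157% of all features were called, and the median was -0.06. Again none had an unadjusted p under 0.05, against 5.21% of all features. In the 2-AAPA arm 0 of 32 were called, where 4.21% of all features were called, and the median was -0.04. DESeq2 called 0 of 32 in the DMSO and mitoQ arms.

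The only unadjusted p under 0.05 in the 2-AAPA arm was that of Rpn6, where 14.4% of all features reached it. Rpn6 had a log2 fold change of -0.18 ± 0.06 (SE) with a 95% interval of -0.30 to -0.07. Its adjusted p was 0.0579 in edgeR's quasi-likelihood test. The adjusted p ranged from 0.00137 to 0.144 over the alternatives, and Rpn6 was called by DESeq2, with the replicate number as a block, with the length tilt as a covariate, without acute DMSO replicate 5 and without chronic DMSO replicate 7, which do not belong to this arm but enter the shared estimate of the spread. The lowest value, 0.00137, was with the 5 libraries left out, among them chronic 2-AAPA replicate 5, chosen on the subunits' own levels. With the replicate block the log2 fold change was -0.20 and the adjusted p 0.0296, where 3.92% of all features were called. Without acute DMSO replicate 5 the adjusted p was 0.0446, and without chronic DMSO replicate 7 it was 0.0161. The estimate was 0.003 ± 0.05 in the DMSO arm and -0.10 ± 0.06 in the mitoQ arm. The DMSO arm holds chronic DMSO replicate 7, with 114 CPM of Rpn6 against 82.3 to 90.3 CPM in the others of its group. The difference between arms was not called in the interaction test, where Rpn6 had the smallest adjusted p of the subunits, 0.934 (edgeR's quasi-likelihood test).

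The second question was whether either drug changed the proteasome relative to DMSO. The doses of the drugs differ, 10 µM against 100 µM, so their values stand side by side and are not compared with each other. Both drugs share the DMSO samples of a schedule. In the test of drug with adjustment for schedule, 0 of 32 subunits were called, where 0.00871% of all features were called. There 1 subunit, Prosalpha5, had an unadjusted p under 0.05, against 8.19% of all features. In the interaction of drug and schedule 0 of 32 were called by edgeR's quasi-likelihood test, where 0% of all features were called. None had an unadjusted p under 0.05, against 6.13% of all features. DESeq2 called 0 of 32 in both tests.

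After acute feeding the subunits were not separable from their DMSO controls. Under acute 2-AAPA, 0 of 32 were called, where 0.0261% of all features were called, and under acute mitoQ 0 of 32, where 0% of all features were called. None had an unadjusted p under 0.05 in either comparison, against 5.92% of all features with 2-AAPA and 1.54% with mitoQ. DESeq2 called 0 of 32 in each. The median log2 fold change was -0.12 with 2-AAPA and -0.07 with mitoQ, against -0.005 for all features in each case. With acute DMSO replicate 5 left out, these medians were -0.004 and 0.01. All 32 intervals lay within a 1.5-fold change in each comparison, with outermost bounds of -0.45 for Prosbeta4 and 0.23 for 2-AAPA and of -0.40 for Rpn13 and 0.17 for mitoQ.

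After chronic feeding 0 of 32 were called under 2-AAPA, where 2.13% of all features were called, and 0 of 32 under mitoQ, where 1.82% of all features were called. Of the features called, 8 were higher and 237 lower under 2-AAPA, and 0 were higher and 209 lower under mitoQ. Chronic DMSO replicate 7 is a control in both comparisons, and its part in these calls is not given here. DESeq2 also called 0 of 32 in each. The median log2 fold change was -0.09 with 2-AAPA and -0.08 with mitoQ, against -0.01 and -0.02 for all features. In each, 31 of 32 estimates were negative, against 53.2% and 56.5% of all features. The subunits varied together between libraries, so these are not 32 separate observations. Without chronic DMSO replicate 7 the medians of the subunits were -0.04 and -0.06. With the 5 libraries that stand apart left out they were -0.04 and -0.03. An unadjusted p under 0.05 was reached by Prosbeta7 and Rpn7 under chronic 2-AAPA, with log2 fold changes of -0.20 ± 0.09 and -0.16 ± 0.08 (SE). Under chronic mitoQ it was reached by Prosalpha5, with -0.25 ± 0.10 (SE). Of all features, 10.1% reached it under chronic 2-AAPA and 8.29% under chronic mitoQ. Prosalpha5, an alpha ring subunit, had 46.3 to 66.9 CPM with a median of 48.8 in chronic DMSO and 38.97 to 48.8 CPM with a median of 43.5 in chronic mitoQ, and these groups overlapped. Its adjusted p was 0.312 in edgeR's quasi-likelihood test, and its interval reached from -0.45 to -0.05.

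**Figure D3:**
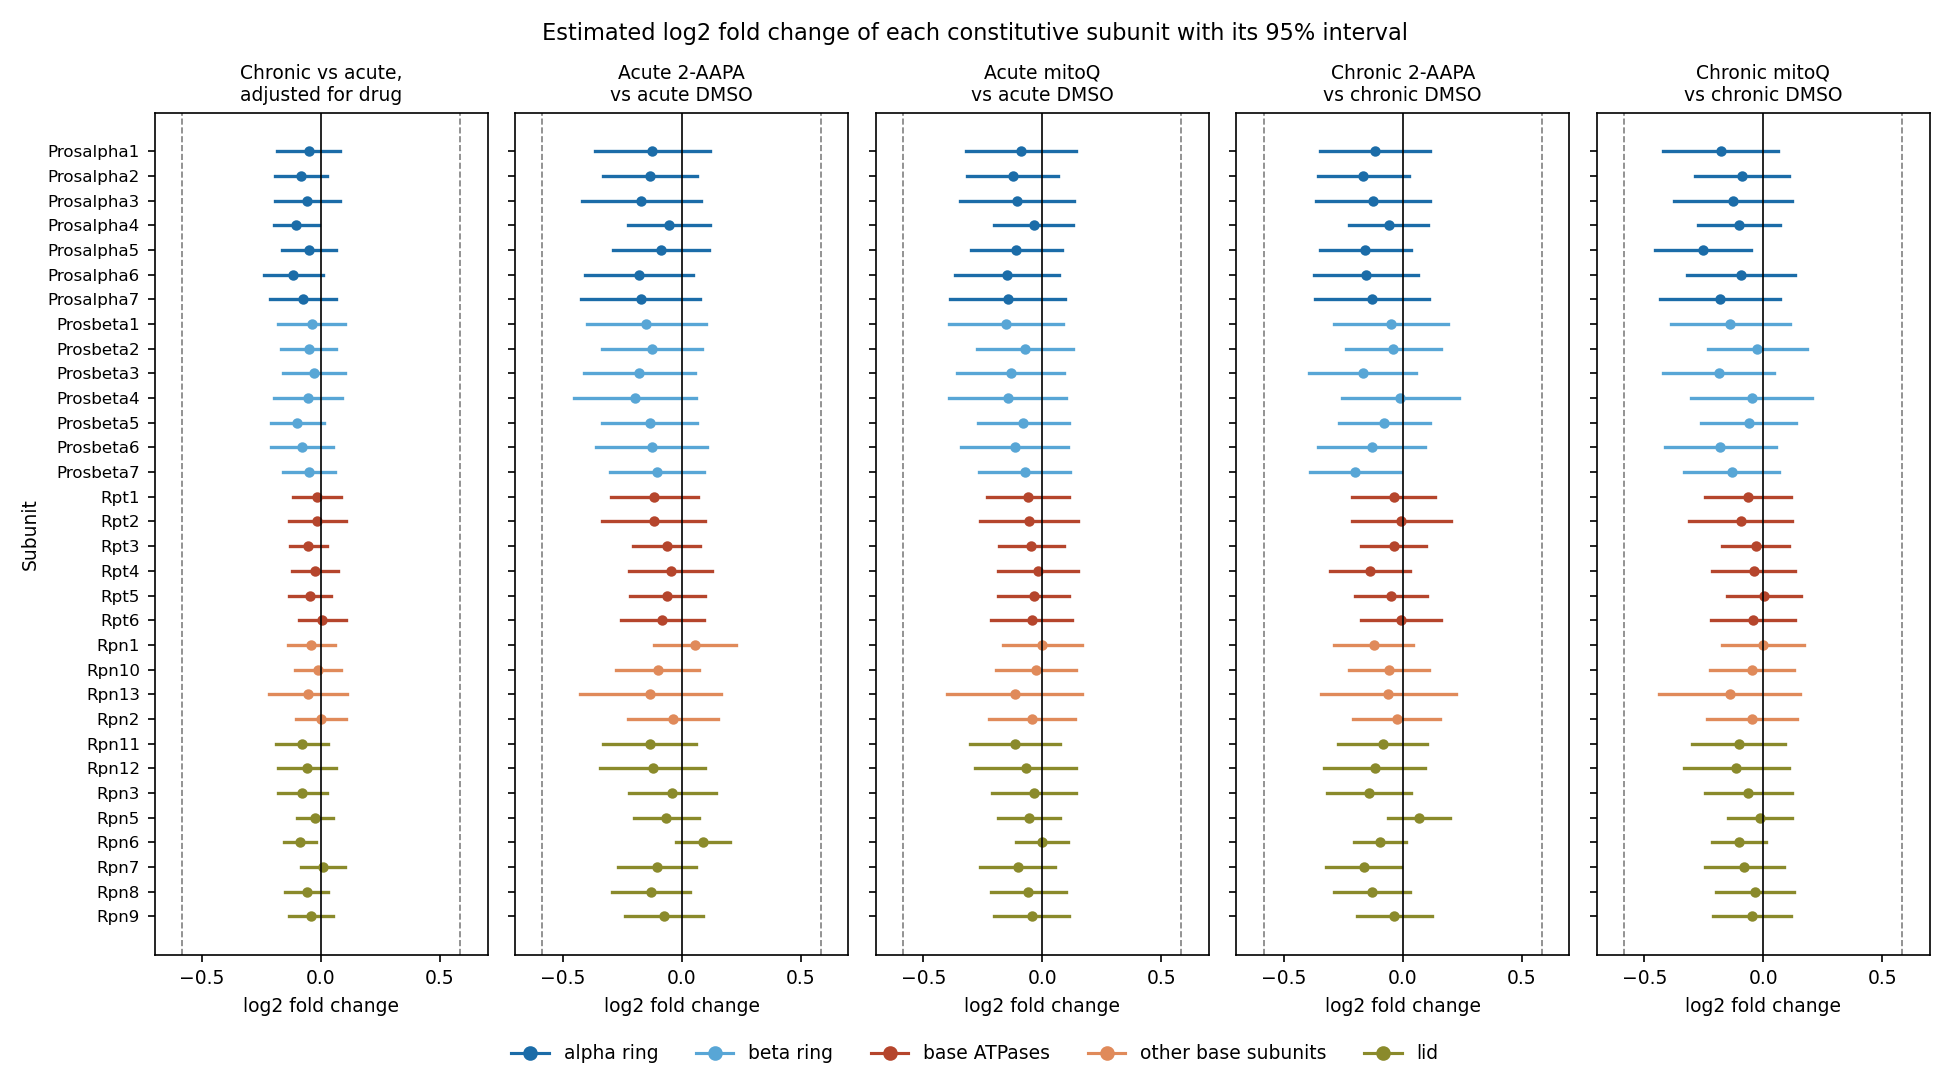
Log2 fold change of each of the 32 constitutive subunits (points) with its 95% interval (lines) between schedules and for each drug against DMSO of the same schedule. Colours mark the classes, and dashed lines mark a 1.5-fold change. All intervals lie between the dashed lines, and most points lie slightly to the left of 0.

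While no comparison of conditions called a subunit, the subunits varied together from library to library. After the group means were removed, the correlation of log2 CPM between 2 constitutive subunits had a median of 0.819 over the 496 pairs and the 40 samples. For all pairs of the features tested the median was -0.003, and no set of genes matched for length or level was compared. The median was 0.899 within the core, 0.793 within the regulatory particle and 0.795 between the particles. The closest pair was Prosalpha7 with Prosbeta1, from neighbouring rings of the core, with r = 0.960, followed by the base members Rpn13 and Rpt2 with 0.957. These points share a library in each case, so that composition and depth of the library enter every pair.

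The median over the 496 pairs was 0.838 without chronic DMSO replicate 7, 0.783 without acute DMSO replicate 5 and 0.834 without all 5 of these libraries. With the length tilt of each library removed it was 0.791. The spread within groups had a median SD of 0.172 on the log2 scale for the 32 subunits, against 0.238 for all features tested. Each subunit had at least 860 counts in every sample, and the spread was not compared with that of genes of like level.

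A few subunits of the regulatory particle stood outside this pattern. Rpn6 had a median correlation of 0.179 with the other subunits, at most 0.385 with Rpn9 and at least -0.111 with Rpt4, and the lowest SD within groups, 0.0906. For Rpn1, which docks ubiquitin carriers and the deubiquitinase Usp14, the median was 0.491, and for Rpn5, a scaffold subunit of the lid, it was 0.517. With the length tilt removed the median was 0.0945 for Rpn6 and 0.021 for Rpn5, whereas it was 0.848 for Rpn1, above the median of all pairs. Acute DMSO replicate 5, which was the highest of its group in 29 of 32 subunits, had 89.8 CPM of Rpn6, within the 86.1 to 93.8 CPM of its group.

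**Figure D4:**
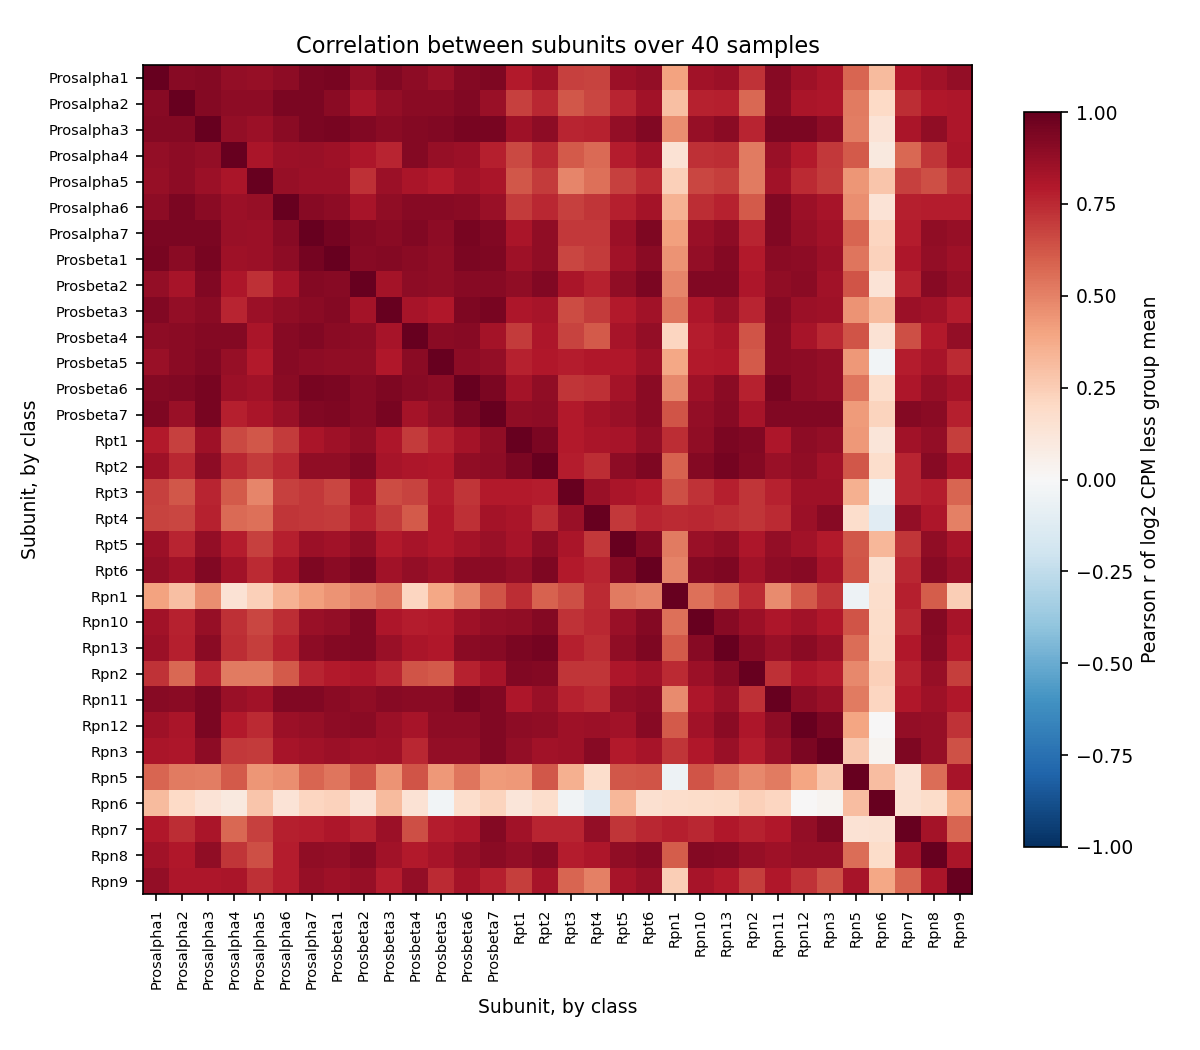
Pearson correlation between the constitutive subunits over 40 samples, from log2 CPM with the group mean removed, with subunits ordered by class on both axes. Red marks positive and blue negative values. The core subunits form a block with a median of 0.899, and the row of Rpn6 is pale, with a median of 0.179.

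Single libraries moved across nearly the whole set. Acute DMSO replicate 5 was the highest of all 40 samples in 23 of 32 subunits, which included all 14 core subunits and 9 of the regulatory particle. Chronic mitoQ replicate 4 was the lowest of its group in 32 of 32 subunits, with a core sum of 782.2 CPM, and acute mitoQ replicate 5 was the highest of its group in 29. Chronic 2-AAPA replicate 5 was the highest of its group in 28, which included all 18 of the regulatory particle and 10 of the core. In this last library Rpn2 had 165.0 CPM, against 91.4 to 109 CPM in the other 6 samples of its group, and Rpn13 had 155.1 CPM against 76.7 to 99.0 CPM. Acute DMSO replicate 5 and chronic mitoQ replicate 4 were also at the ends of some genes outside the set. Among the wider pathway genes given below, RpL40 was highest in the former, with 2289 CPM, and lowest in the latter, with 850.2 CPM. Others went the other way, such as REG, which was lowest in acute DMSO replicate 5 with 42.36 CPM.

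The level of the core moved with the length tilt of the libraries. The tilt is a slope on gene length over all features tested, the subunits among them, and the core genes are short. Other short genes were not compared, so a relation of the core cannot be told apart from one of short genes in general. Over the 40 samples, after removal of group means, the tilt and the mean log2 CPM of the core subunits had a Pearson correlation of -0.756 (permutation p = 1e-05, the smallest that 100000 permutations can give, adjusted p = 4e-05 over 4 relations) and a Spearman correlation of -0.668 (permutation p = 1e-05, adjusted p = 4e-05). It was -0.799 without the 2 samples farthest from the median, acute DMSO replicate 5 and chronic DMSO replicate 4. Within the acute samples it was -0.923 and within the chronic samples -0.335, and the difference between the schedules was not tested. For the regulatory particle the correlations were -0.536 (permutation p = 0.00058, adjusted p = 0.0012) and -0.522 (permutation p = 0.00057, adjusted p = 0.0011), and -0.569 without the same 2 samples, with -0.800 in acute and -0.150 in chronic samples. The share of ribosomal RNA had correlations of -0.0327 with the core (permutation p = 0.84, adjusted p = 0.84) and -0.169 with the regulatory particle (permutation p = 0.3, adjusted p = 0.4), and its Spearman correlations were -0.219 (permutation p = 0.17, adjusted p = 0.17) and -0.300 (permutation p = 0.06, adjusted p = 0.08).

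The wider ubiquitin and proteasome pathway was tested with the same fit. Of the list of assembly factors and activators, which holds among others the maturation factor Pomp and the activator REG, 9 of 11 genes were matched and tested, and 0 were called in any of the 10 comparisons. Of the list of ubiquitin supply and shuttling, 11 of 12 were matched and tested, and 1 was called, in the DMSO arm, where 5.11% of all features were called. This was Npl4, a partner of the segregase that extracts ubiquitin-tagged proteins, which rose between acute and chronic DMSO. Its levels lay between 93.8 and 112.3 CPM with a median of 105.0 in acute DMSO and between 110.5 and 159.4 CPM with a median of 124.9 in chronic DMSO. These groups overlapped slightly, and the log2 fold change was 0.33 ± 0.10 (SE) with an adjusted p of 0.0371 in edgeR's quasi-likelihood test. The highest value belonged to chronic DMSO replicate 7, and without that library the log2 fold change was 0.29 ± 0.10 with an adjusted p of 0.163, so that the call was lost. Over the alternatives the adjusted p ranged from 0.0119 to 0.447, and it was 0.0602 with the replicate block. In the other arms the estimate was 0.21 ± 0.10 for 2-AAPA and -0.15 ± 0.10 for mitoQ, neither of which was called, and the interaction test had an adjusted p of 0.319. Acute mitoQ against acute DMSO gave 0.34 ± 0.10 with an adjusted p of 1. Of the regulators, 5 of 5 were tested and 0 were called, in cnc, maf-S and Pngl as in Keap1, the inhibitor of cnc, which had the smallest adjusted p of the list between schedules, 0.0557, with a log2 fold change of 0.13 ± 0.05 (SE).

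The paralogs divided into 3 patterns. Prosalpha1R was counted almost exactly as its constitutive copy. Prosalpha1 lies on chromosome 2R from 7827303 to 7828678 and Prosalpha1R from 7830413 to 7831771, on the same strand and with 1734 bases between them. The counts of Prosalpha1 lay between 2933 and 5281 and those of Prosalpha1R between 2931 and 5283. Within a library they differed by -11 to 4 counts (Prosalpha1R minus Prosalpha1), at most 0.347%, and they were equal in 7 of 40 libraries. How reads that fit both genes were assigned is not given in the sources used here, and neither value can be read as the level of one gene. In the comparisons Prosalpha1R had no call, with a log2 fold change between schedules of -0.05 ± 0.07 (SE).

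Rpn13R, a paralog of the ubiquitin receptor Rpn13, was detected at a low level in every library. Its counts lay between 18 and 116 with a median of 54 in 39 libraries, and it had 275 counts in chronic DMSO replicate 7. In CPM it had medians of 2.00, 2.13 and 2.45 in acute DMSO, 2-AAPA and mitoQ and of 2.25, 2.23 and 1.52 in the corresponding chronic groups. Chronic mitoQ, with 1.18 to 1.71 CPM, lay below the lowest sample of acute 2-AAPA (1.81 CPM) and of acute mitoQ (1.73 CPM) and overlapped the other groups, and no comparison called the gene. Its largest estimate was a log2 fold change of -1.07 ± 0.35 (SE) in chronic mitoQ against chronic DMSO, with an adjusted p of 0.133 in edgeR's quasi-likelihood test, and without chronic DMSO replicate 7 this estimate was -0.43 with an adjusted p of 1.

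The other 14 paralogs were close to absent from 39 libraries and present in one. Their summed count was 4638 in chronic DMSO replicate 7, and between 15 and 41 with a median of 25 in each of the other 39. Of the 546 values in those 39 libraries 45.2% were at 0, and the highest was 14. None of these 14 passed the filter, so that they entered no test in the main analysis. In chronic DMSO replicate 7 their counts reached from 89 for Prosalpha3T to 625 for Rpt6R, and all 16 paralogs had their highest count of all 40 libraries there.

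Paralogs of the rings, the ATPases and the lid had their higher counts in that library. Among the core paralogs Prosbeta5R1 had 621 counts against 0 to 3 elsewhere, Prosbeta4R2 had 544 against 0 to 4, Prosalpha6T had 439 against 0 to 10 and Prosalpha4T2 had 329 against 1 to 8. Prosbeta2R2 had 233 counts against 1 to 8, Prosbeta2R1 had 183 against 0 to 3, Prosbeta5R2 had 180 against 0 to 2, Prosalpha4T1 had 144 against 0 to 3 and Prosbeta4R1 had 128 against 0 to 2. These include second copies of the catalytic subunits Prosbeta2 and Prosbeta5. Among the paralogs of the regulatory particle Rpn12R had 452 counts against 0 to 2, Rpt4R had 338 against 0 to 4 and Rpt3R had 333 against 2 to 14. Prosbeta4R1 and Prosbeta4R2 lie 1467 bases apart on chromosome 2L, and the exons of Prosbeta4R2 share 69 bases with Or23a on the same strand, so that its count is uncertain to that extent.

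Apart from Prosalpha1R, whose share was 50%, the paralogs made up a minor share of the reads of their pair in that library. Among these 15 the share of paralog in the sum of paralog and constitutive counts was highest for Prosbeta4R2, at 26.8% with a Wilson 95% interval of 24.9% to 28.8%, and for Rpn12R, at 26.2% with an interval of 24.2% to 28.3%. It was 22.4% for Prosalpha6T (20.6% to 24.3%) and 17.4% for Rpt6R (16.2% to 18.6%), and lowest for Prosalpha3T, at 4.13% (3.37% to 5.05%). These intervals cover counting error only. With the other 39 libraries pooled, the same shares were 0.0213% for Prosbeta4R2, 0.0301% for Rpn12R and 0.206% for Prosalpha3T. Per length, Prosbeta5R1 had 20.4 CPM per kb in that library, against 90.1 CPM per kb for Prosbeta5.

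**Figure D5:**
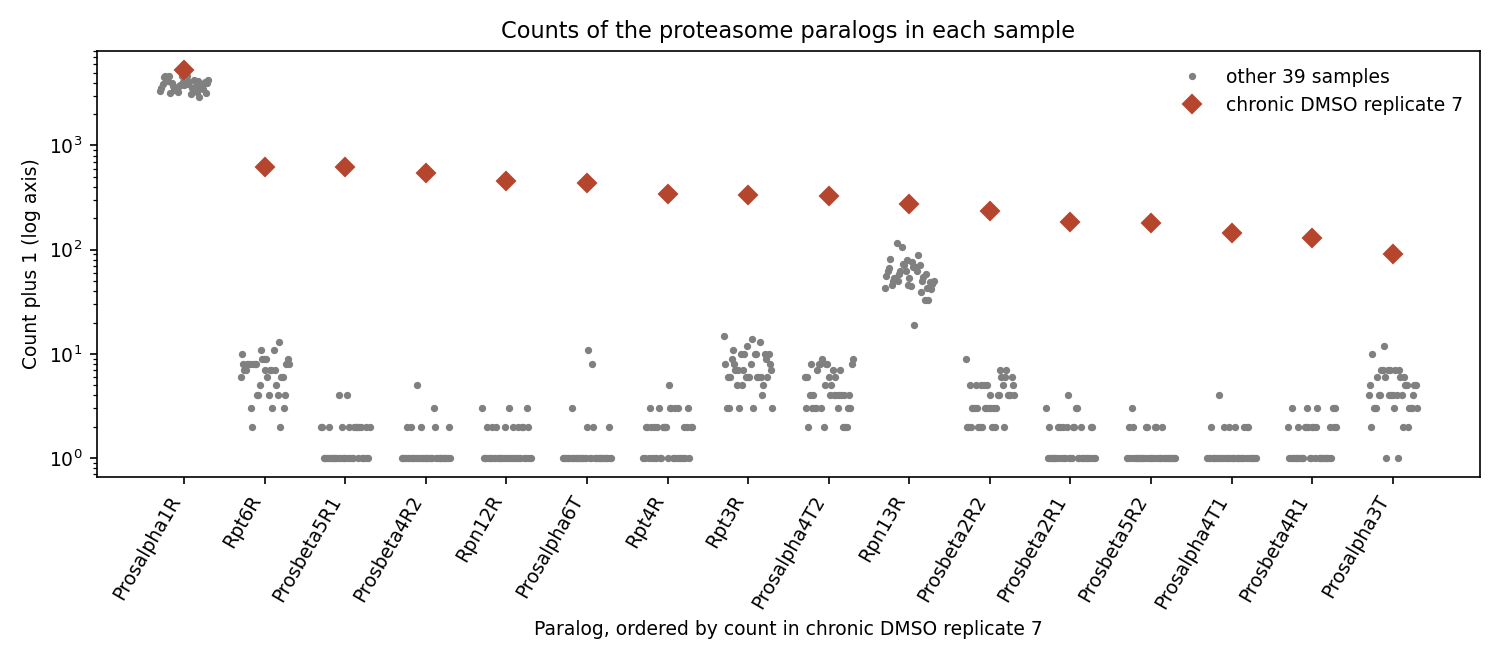
Counts plus 1 of the 16 paralogs on a log axis, ordered by the count in chronic DMSO replicate 7 (red diamonds), with the other 39 samples as grey points. For 14 paralogs the diamond lies at 89 to 625 counts, while no grey point exceeds 14 counts. Prosalpha1R and Rpn13R are detected in all samples.

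Markers of testis and accessory gland moved with the paralogs. Of the list of testis markers 28 of 30 were matched, all 28 had their highest level in chronic DMSO replicate 7 and none was at 0 there. Their summed level was 4450 CPM in that library and 10.7 to 17.3 CPM in the other 39. Of the accessory gland markers 11 of 12 were matched, all 11 were highest in the same library, and their sum was 748 CPM against at most 1.12 CPM elsewhere. Of the 3 matched markers of the ejaculatory duct and bulb 2 were highest there, while their sum of 2670 CPM lay within the 1850 to 4340 CPM of the others. Only 1 of the 3 had at least 10 counts in every library, and the sum does not show how each marker moved. The photoreceptor markers summed to 36600 CPM in that library, against 41300 to 56600 CPM in the others. Their part in the paralog counts was not tested. Among the constitutive subunits, chronic DMSO replicate 7 was the highest of its group in 13 of 32 and the highest of all samples in Rpn6 alone.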

How the data were processed

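The authors ran the nf-core RNA-seq pipeline on directional poly-A libraries against the BDGP6 genome, allowed reads with many locations, counted them with featureCounts (genes) and TEcount (transposable element families), and deposited raw counts without normalization, 24318573 to 30104079 per sample. Per the labels, FastQC and MultiQC were also used. The versions of the counting tools, the strand setting and the assignment of shared reads are not given in the sources used here. The table holds 17784 features, 228 genes without a symbol among them.

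From these counts, edgeR 4.0.16 in R 4.3.3 (TMM, filterByExpr, robust quasi-likelihood F test) was fitted to 11477 features in 40 samples, with Benjamini-Hochberg adjustment over all of them and a threshold of 0.05. Schedule and drug were tested additively, and a fit over group means gave the 4 drug contrasts against DMSO, the 3 single arms and the interaction. The SE is the log2 fold change divided by the square root of F. Log2 CPM has a prior count of 2. Positions and gene lengths were taken from Ensembl's BDGP6 annotation, and exon lengths matched those in the table for 48 of 48 genes. The length tilt is the slope of log2 CPM, less its mean over samples, on log2 length. Figures were drawn with matplotlib.

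Members and lists were chosen with earlier results of these data known. Named with values were any called subunit, the lowest and highest estimate between schedules in each class, the catalytic subunits, Rpn11 and every paralog with a count of at least 10. Prosalpha4, Prosbeta7, Prosbeta4 and subunits given for their level or correlation were added after their values were seen. The fit was tested on simulated data. Alternatives were DESeq2's size factors, no filter, DESeq2 1.42.0, limma 3.58.1 after cyclic LOESS of log2 counts plus 2, a replicate block, the removal of chronic DMSO replicate 7 or acute 2-AAPA replicate 6, and ribosomal RNA share as a covariate. The removal of acute DMSO replicate 5 or of 5 libraries, and the length tilt as a covariate, were added after the data were seen. Promoter and protein sequences were not used here.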

Additional observations from a re-analysis of the deposited data

Results flagged for a closer look

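In 34 of 117 combinations of a group with a subunit, paralog or summed level, 1 sample lay far from the others of its group by Dixon's ratio of gap to range. The rate of about 5% by chance does not apply to this tally. A paralog was examined only in groups where a sample had at least 10 counts of it. The paralogs were also set apart with their rise in chronic DMSO replicate 7 already known. The flags are not independent, since the subunits move together.

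Acute DMSO replicate 5 was the high sample for the sum of the core, with 1570 CPM, and for Prosalpha6 with 81.8, Prosalpha5 with 73.3, Prosbeta5 with 166, Prosbeta3 with 72.9, Prosbeta1 with 106, Rpt6 with 136, Rpn13 with 170 and Rpn11 with 82.2 CPM. The paralog Rpn13R was also far above its group there, at 4.01 CPM against at most 2.29. The same library had the strongest length tilt of the 40, -0.314, and the lowest TMM factor, 0.815, and their part in these levels was not tested library by library.

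Chronic 2-AAPA replicate 5 was the high sample for the sum of the regulatory particle, with 1790 CPM, for Rpn2 with 165, Rpn13 with 155, Prosbeta1 with 79.0 and Prosbeta3 with 51.8 CPM. Its length tilt was -0.0258. Acute 2-AAPA replicate 1 was high in Prosbeta3 with 51.9 CPM, acute 2-AAPA replicate 3 in Rpn13R with 4.37 CPM and acute 2-AAPA replicate 6, the pool of 13 heads, in Prosalpha3T with 0.411 CPM, which is a count of 11.

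Chronic DMSO replicate 7 was the high sample of its group for Rpn6, with 114 CPM against at most 90.3, and for 15 paralogs. These were Prosalpha3T with 3.23, Prosalpha4T1 with 5.23, Prosalpha4T2 with 12, Prosalpha6T with 16.0, Prosbeta2R1 with 6.65, Prosbeta2R2 with 8.47 and Prosbeta4R1 with 4.65 CPM. They also include Prosbeta4R2 with 19.8, Prosbeta5R1 with 22.6, Prosbeta5R2 with 6.54, Rpn12R with 16.4, Rpn13R with 10.0, Rpt3R with 12.1, Rpt4R with 12.3 and Rpt6R with 22.7 CPM. Prosalpha1R was not examined, since its counts repeat those of Prosalpha1.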

How the results depend on the processing

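In 102 of 110 values over the 10 comparisons and 11 alternatives the number of constitutive subunits called stayed at 0. It rose to 1, Rpn6, which was lower in chronic samples, in the remaining 8. These were the comparison of schedules without chronic DMSO replicate 7 and with the 5 libraries that stand apart left out, and the 2-AAPA arm in DESeq2, with the replicate block, without chronic DMSO replicate 7, without acute DMSO replicate 5, with those 5 libraries left out and with length tilt as covariate. The cause was not tested. The median log2 fold changes of the subunits moved in no comparison by more than 0.153, the SD of their mean within groups, but changed sign in the comparison of schedules (0.006 with length tilt as covariate), the DMSO arm (0.04 without acute DMSO replicate 5), the mitoQ arm (0.009 with length tilt as covariate) and acute mitoQ against acute DMSO (0.02 with the 5 libraries left out). With no filter on low counts the paralogs called rose from 0 to 4 between schedules, 14 in the DMSO arm, 10 for drug, 14 for chronic 2-AAPA and 15 for chronic mitoQ against chronic DMSO, where 10.5%, 16.3%, 9.57%, 13.2% and 12.3% of all features were called, and every paralog had its highest count in 1 library, chronic DMSO replicate 7. They rose to 1, Rpt3R, in the DMSO arm, chronic 2-AAPA and chronic mitoQ without acute 2-AAPA replicate 6, where the filter kept 3 paralogs. The highest median level of a subunit was 4.55 times the lowest per kb and 3.14 times by CPM with no division by length. Same-numbered samples of the groups compared had correlations of their deviations between -0.574 and 0.619, over 0.1 in 18 of 45 pairs. They were over 0.1 in 5 of 7 pairs between acute DMSO and acute mitoQ and in 1 of 6 between chronic DMSO and chronic mitoQ. Of the 45, 10 correlated best with their own number. No level by chance was computed, so these values do not decide whether the numbers pair the samples. The replicate block changed no call of a subunit except that of Rpn6 in the 2-AAPA arm, a log2 fold change of -0.20, and ended that of Npl4 in the DMSO arm (adjusted p = 0.0602). Counts of 860 or more per subunit leave depth as no limit for the constitutive subunits, whereas the 14 low paralogs, at 14 counts or fewer outside 1 library, were too shallow for a comparison of conditions.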
